A study of Mus musculus with 6 samples.

Results

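Mcpt8, Prss34, Cpa3, Cma1, Mcpt4, Tpsb2 and Tpsab1 are the 7 genes described here, chosen by name as the granule proteases of mouse basophils and mast cells, out of 31053 genes in the matrices of 6 single-cell RNA libraries. Bone marrow cells of C57BL/6 mice were grown with GM-CSF, which gives dendritic cells (DCs) and by-products such as granulocytes, and 3 cultures were sequenced. They were an untreated culture, a culture stimulated with the vitamin D3 hormone calcitriol (VD3) at 1e-06 M for 24 h on day 7, and a culture in which Ndrg2 had been cut by Cas9 with 3 guides. The other 3 libraries were cells of splinted full-thickness skin wounds of C57BL/6J mice of 6 weeks. The wounds were covered with a hydrogel that carried 500000 control DCs, 500000 Ndrg2-KO DCs or no cells (blank hydrogel). They were taken on day 10 from 5 mice a group, and whether these mice were pooled is not stated. The labels call the control DCs of the wounds untreated, whereas the study's methods describe electroporation with non-targeting guides. The Ndrg2-KO culture was electroporated and the untreated culture was not, so that the knockout and its delivery cannot be told apart in the cultures. The wounds hold cells of the host beside any transplanted DCs, and which of them a sequenced cell was is not recorded in the counts.

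Each condition was 1 library, so no difference between conditions could be tested against replicates, and each interval is a 95% interval for counting error alone. A cell was kept if it showed 300 genes or more, stayed below 100000 UMIs and had less than 10% of its UMIs from mitochondrial genes. Kept cells numbered 7257 (untreated), 8825 (VD3) and 7969 (Ndrg2-KO) in the cultures and 1948 (control DC), 5681 (Ndrg2-KO DC) and 3403 (blank hydrogel) in the wounds. The kept cells held 116461484 to 143627482 UMIs a culture and 29675507 to 49240341 UMIs a wound library, with medians of 4415 to 16316 UMIs per cell. Any pair of libraries shared 1 to 19 cell barcodes, at most 0.264% of the smaller library. Ndrg2, the edited gene, was at 4.62 CPM (UMIs for each 1000000 UMIs of the library) in the untreated culture, 1.42 CPM in the VD3 culture and 0.884 CPM in the Ndrg2-KO culture, from 613, 165 and 127 UMIs. In the wounds Ndrg2 was at 6.10 CPM with control DCs, 3.33 CPM with Ndrg2-KO DCs and 3.29 CPM with the blank hydrogel. A small insertion or deletion leaves a transcript that can still be counted, so these levels do not measure the editing.

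Basophils and mast cells are the granulocytes that carry the high-affinity IgE receptor, and both store proteases in granules, bound to the proteoglycan serglycin and released when IgE is cross-linked. Basophils live briefly in blood, and GM-CSF or IL-3 cultures of bone marrow yield them; mast cells mature in tissues under Kit ligand and stay there. Mcpt8 encodes the serine protease by which mouse basophils are recognised, and Prss34 a tryptase made mainly by basophils. Cma1 and Mcpt4 encode chymases of connective tissue mast cells, and Tpsb2 and Tpsab1 encode their tryptases. C57BL/6 mice carry a splice site mutation in Tpsab1 that abolishes its protein. Cpa3 encodes carboxypeptidase A3, a metalloprotease of mast cells and basophils.

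Of the 7 genes, 6 lie in 2 clusters of related proteases in the GRCm38 annotation. Cma1 (chr14:55941451-55944675), Mcpt4 (chr14:56059629-56062313) and Mcpt8 (chr14:56082166-56085273), all on the minus strand, lie within 143.823 kb of the chymase locus, which goes on to cathepsin G and the granzymes. Prss34 (chr17:25298394-25300165, plus strand), Tpsab1 (chr17:25343245-25345562, minus strand) and Tpsb2 (chr17:25366305-25369098, plus strand) lie within 70.705 kb of the tryptase locus. Cpa3 (chr3:20215620-20242181, minus strand) stands alone. Ndrg2 is on chromosome 14 too, and its end is 4027.29 kb from Cma1. Transcript windows of 50 bases shared with another gene made up 5.38% of those of Cma1 (with Gm48934) and 5.48% of those of Mcpt4 (with Cma2 and Mcpt9), or 11.2% and 11.6% of the last 500 windows, towards the end that a 3′ kit reads, and none of those of the other 5 genes.

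The 250 bases before the RefSeq start of 5 of the genes are shown because Mcpt8, Prss34 and Cpa3 appeared in one class of cells and Cpa3, Cma1 and Mcpt4 in another, so that the windows of the shared gene and of the others can be read side by side. They are RefSeq sequences of GRCm38.p6, written 5′ to 3′ on the strand of the gene, and capitals mark GATAA on either strand (TTATC on the other strand), the core letters bound by GATA factors. The windows are chr14:56085198-56085447 (Mcpt8), chr17:25298144-25298393 (Prss34), chr3:20242182-20242431 (Cpa3), chr14:55944676-55944925 (Cma1) and chr14:56062311-56062560 (Mcpt4). The RefSeq start is not always that of the annotation above: 76 bases of the Mcpt8 window and 3 of the Mcpt4 window lie inside the annotated gene. Tpsb2 and Tpsab1 had no matching entry.
Mcpt8: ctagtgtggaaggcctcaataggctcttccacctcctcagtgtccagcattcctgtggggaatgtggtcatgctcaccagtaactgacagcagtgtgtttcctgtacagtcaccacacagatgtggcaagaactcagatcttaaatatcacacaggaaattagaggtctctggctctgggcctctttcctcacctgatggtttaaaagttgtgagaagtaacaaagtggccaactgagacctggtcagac
Prss34: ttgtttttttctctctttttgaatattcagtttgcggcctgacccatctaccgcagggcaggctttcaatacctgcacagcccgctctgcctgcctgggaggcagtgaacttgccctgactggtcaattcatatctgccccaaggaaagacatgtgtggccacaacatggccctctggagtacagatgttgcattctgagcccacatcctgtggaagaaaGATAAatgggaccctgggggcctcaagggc
Cpa3: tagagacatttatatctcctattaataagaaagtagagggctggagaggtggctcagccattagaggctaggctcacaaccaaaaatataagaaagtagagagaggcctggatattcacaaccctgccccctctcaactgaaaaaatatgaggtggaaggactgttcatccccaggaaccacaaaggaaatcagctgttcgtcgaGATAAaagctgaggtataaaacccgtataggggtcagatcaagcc
Cma1: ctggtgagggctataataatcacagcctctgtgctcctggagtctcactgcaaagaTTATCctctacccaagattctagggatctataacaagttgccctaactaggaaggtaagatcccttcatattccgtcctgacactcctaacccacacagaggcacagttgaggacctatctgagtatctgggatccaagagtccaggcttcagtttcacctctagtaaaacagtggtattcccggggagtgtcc
Mcpt4: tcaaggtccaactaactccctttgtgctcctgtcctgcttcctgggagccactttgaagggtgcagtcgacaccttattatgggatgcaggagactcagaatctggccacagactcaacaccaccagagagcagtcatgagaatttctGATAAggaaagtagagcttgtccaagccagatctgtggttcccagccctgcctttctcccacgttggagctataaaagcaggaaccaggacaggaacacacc

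GATAA stood in 4 of these 5 windows, in Prss34, Cpa3, Cma1 and Mcpt4, and not in Mcpt8. Over all 32851 promoters of the same length, 22.6% held GATAA on either strand. TATAAA on the strand of the gene stood in Cpa3 and Mcpt4 and in 7.59% of all promoters. CACCTG on either strand, an E-box, stood in Mcpt8, inside the annotated gene, and in 17.2% of all promoters, and TGTGGT on either strand, the core of the RUNX motif, stood in Mcpt8, Cpa3 and Mcpt4 and in 14.0% of all. These are matches of letters in short windows and say nothing of binding.

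In the cultures the proteases of basophils were present and those of mast cells were all but absent. Mcpt8 was at 23.8 CPM (interval 23.0 to 24.6) in the untreated culture, from 3155 UMIs in 56 cells, and at 18.8 CPM (18.1 to 19.6) in the VD3 culture, from 2193 UMIs in 56 cells. Prss34 was at 24.4 CPM (23.5 to 25.2) and 25.2 CPM (24.3 to 26.1), from 3229 UMIs in 55 cells and 2931 UMIs in 52 cells. Cpa3 was at 7.40 CPM (6.94 to 7.88) and 10.3 CPM (9.74 to 10.9), from 981 UMIs in 37 cells and 1201 UMIs in 53 cells. Cma1 and Mcpt4 had 0 UMIs in all 3 cultures. Tpsb2 had 3 UMIs in 1 untreated cell and 1 UMI in the VD3 culture, and Tpsab1 had 1 UMI in the VD3 culture. The 7 genes together came to 55.6 CPM (54.3 to 56.9) untreated and 54.3 CPM (53.0 to 55.7) with VD3. In cells under 5% mitochondrial UMIs the same sums were 147 and 217 CPM, so that the filter moved them far more than counting error.

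In the Ndrg2-KO culture none of the 7 genes had a single UMI among 143627482 UMIs of 7969 cells, where 3 UMIs would be 0.0209 CPM. The share of cells with a protease UMI was 0 of 7969, which allows a share of up to 0.0376% (3 cells of the total), against 91 of 7257 untreated cells (1.25%) and 90 of 8825 VD3 cells (1.02%). With each cell drawn down to 2000 UMIs, these shares were 34 of 6785 cells (0.501%, 0.347% to 0.700%) untreated, 46 of 7676 (0.599%, 0.439% to 0.799%) with VD3 and 0 of 7835 in the knockout. Among the 1163 barcodes of the Ndrg2-KO culture that the filters removed, 1 held 1 Prss34 UMI. This library was the deepest of the 6.

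Set against a floor of 3 UMIs, Mcpt8 was at least 1139-fold lower in the Ndrg2-KO than in the untreated culture, Prss34 at least 1166-fold and Cpa3 at least 354-fold lower. All 3 of the members with enough UMIs were at 0 in the knockout, while 0.195% of all genes tested (26 of 13329 with at least 50 UMIs in the pair) were. With at least 200 UMIs 10 of 11669 genes were (0.0857%). The absence of the members in this culture was known when they were chosen, so these counts are a description.

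Other genes of basophils were low or absent in the Ndrg2-KO culture as well, though not all. Fcer1a and Ms4a2, the alpha and beta chains of the IgE receptor, had 388 and 317 UMIs in the untreated culture, 241 and 203 in the VD3 culture and 0 and 0 in the knockout. Hdc, the enzyme that makes histamine, had 273, 281 and 4 UMIs. Gata2, a transcription factor of both cell types, had 380, 255 and 99 UMIs, and Gata1 27, 8 and 1. Cd200r3, a receptor found on basophils, was not lower, with 771, 485 and 1678 UMIs. Of the other basophil markers, Itga2b had 413, 381 and 52 UMIs, while Itga2 had 7, 5 and 5 and Ccr3 3, 1 and 6, too few to compare. The summed level of the 8 basophil markers was 19.2 CPM untreated, 15.9 CPM with VD3 and 12.8 CPM in the knockout, where 2 of the 8 were at 0. Most of the knockout sum was Cd200r3. Of its 2934 UMIs in the cultures, 714 (24.3%) lay in the cells classed as basophil-like below. The 10 mast cell markers summed to 12.9, 39.9 and 2.24 CPM, with 5 of 10 at 0 in the knockout. Of those 5, Mrgprb1, Mrgprb2 and Tph1 were at 0 in the other 2 cultures too. Most of the VD3 value was Kit, with 3573 UMIs against 251 untreated and 175 in the knockout.

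The summed marker levels of other cell types differed between the cultures as well. The 6 markers of granulocyte-monocyte progenitors summed to 228 CPM untreated, 89.4 CPM with VD3 and 8.45 CPM in the knockout, where Mpo was at 0. Ctsg, cathepsin G of progenitors and neutrophils and the neighbour of Mcpt8 in the chymase locus, had 4076, 1688 and 10 UMIs. The neutrophil list was at 5272, 6035 and 787 CPM and the macrophage list at 7031, 3501 and 18554 CPM. These sums are carried by few genes. Of the 6 neutrophil markers, 3 had an interval past 2-fold lower in the knockout than untreated, S100a8, S100a9 and Cxcr2, and 2 past 2-fold higher, Mmp8 (24250 UMIs untreated and 61773 in the knockout) and Retnlg (10 and 132). Of the 6 macrophage or monocyte markers, Lyz2 alone was past 2-fold higher, at 6333 CPM untreated and 17572 CPM in the knockout, while Adgre1 and C1qa were at log2 ratios of -0.49 and -0.51. Fewer cells of a type and less RNA per cell cannot be told apart in these sums, and the part that the make-up of the culture, its electroporation or the loss of Ndrg2 had in the absence of the proteases was not tested.

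**Figure D1:**
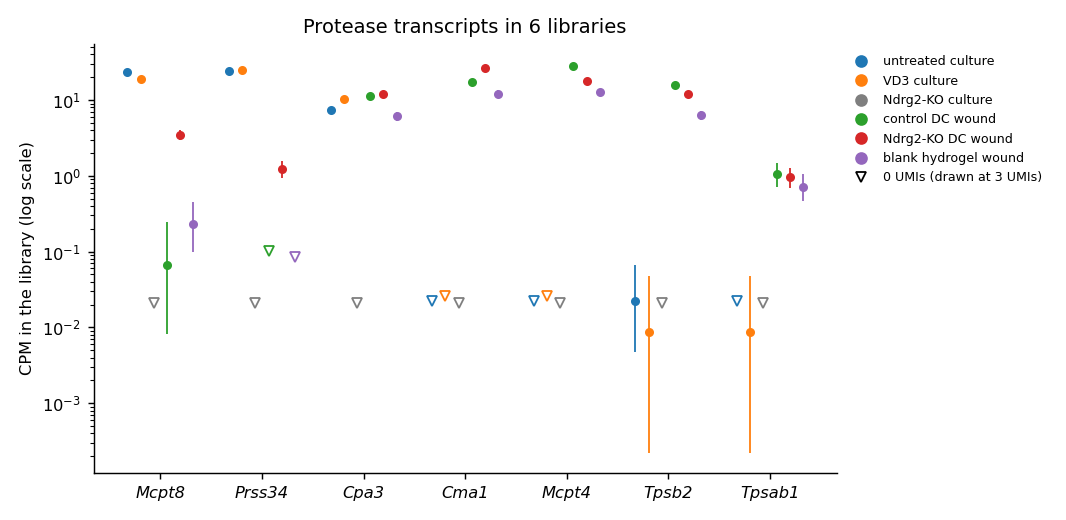
Level of each of the 7 protease genes in the 6 libraries, in CPM of the kept cells on a log axis; points are the libraries, bars the 95% Poisson intervals, and open triangles mark 0 UMIs, drawn at the level of 3 UMIs. Mcpt8 and Prss34 stand highest in the untreated and VD3 cultures, Cma1, Mcpt4, Tpsb2 and Tpsab1 stand in the wounds, Cpa3 is at 6.10 to 11.9 CPM in all 5 libraries that hold it, and the Ndrg2-KO culture shows a triangle for all 7 genes.

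Between the VD3 and the untreated culture, the log2 ratio was -0.34 (-0.42 to -0.26) for Mcpt8, 0.05 (-0.03 to 0.12) for Prss34 and 0.48 (0.36 to 0.60) for Cpa3. The 3 genes thus lay on both sides of 0 and their sum was even, at -0.03 (-0.08 to 0.02). None of the 3 was past 2-fold, while 11.6% of all genes tested were (1524 of 13113). When cells were kept only under 5% mitochondrial UMIs, Mcpt8 changed side, to 0.19, Prss34 was at 0.69 and Cpa3 was past 2-fold, at 1.09.

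Few cells carried almost all of these transcripts, and the ratios between the cultures rest on them. In the untreated culture 29 cells had at least 10 protease UMIs, in the VD3 culture 40, and in the knockout 0. The 10 highest cells held 66.9% of the protease UMIs of the untreated culture and 53.1% of those of the VD3 culture. The 20 highest held 94.0% and 78.8%. Cells with fewer than 10 protease UMIs held 1.24% and 1.12% of all.

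The low counts in other cells were uneven. They are given for cells with fewer than 10 protease UMIs. Among such cells of clusters named from neutrophil markers, which should lack these genes, 2 of 925 untreated cells (0.216%, median depth 2953 UMIs) and 3 of 1110 VD3 cells (0.270%, 2854 UMIs) had a protease UMI, 1 UMI each. In the cluster named from granulocyte-monocyte progenitor markers, 16 of 104 untreated cells had one (15.4%, interval 9.06% to 23.8%, median depth 25547 UMIs), with 22 UMIs of Mcpt8, 12 of Cpa3 and 0 of Prss34. In the VD3 culture 21 of 1081 cells of that cluster did (1.94%, median depth 22588 UMIs). Another 3 cells of that cluster, 1 untreated and 2 VD3, had 10, 14 and 13 protease UMIs. The extent of this cluster depends on the clustering. With 30 components, cells named from these markers with fewer than 10 protease UMIs numbered 1794 untreated and 22 VD3, of which 37 (2.06%) and 3 (13.6%) had a protease UMI, so that no difference between the cultures or from the neutrophils was read from these shares.

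**Figure D2:**
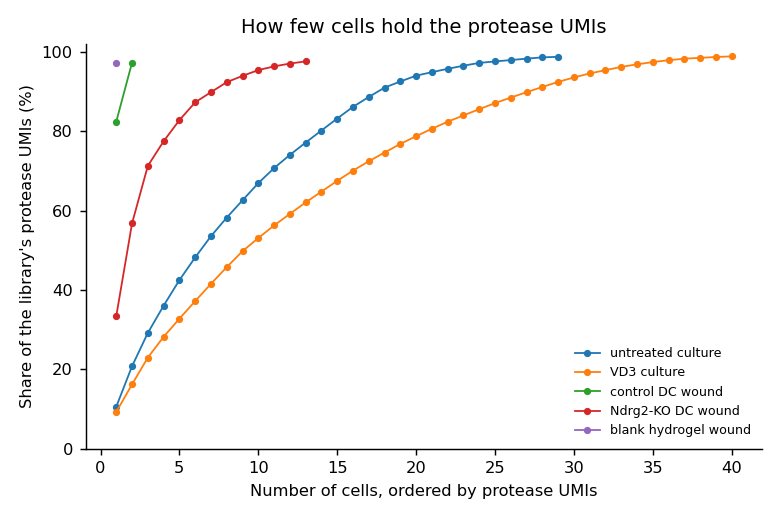
Cumulative share of the UMIs of the 7 genes (percent of the library's total, vertical) held by cells ordered from most to fewest protease UMIs (horizontal), for the cells with at least 10. The blank hydrogel wound reaches 97.2% with 1 cell and the control DC wound 82.4% with its first, while the cultures need 20 cells to reach 94.0% (untreated) and 78.8% (VD3).

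To compare the proteases between cell types, cells were classed by other genes. A cluster of the cultures whose markers named it basophil-like held 62 untreated cells (0.854%), 85 VD3 cells (0.963%) and 1 Ndrg2-KO cell (0.0125%), and 96.8% and 97.0% of the protease UMIs of the first 2 cultures. It was mixed: its leading genes were Prss34, Mcpt8, Ctla2a, Igkc, Cpa3, Nrgn, Prg2, Igha, Cyp11a1 and Fcer1a, immunoglobulin genes among them, and 26 of the 62 and 37 of the 85 cells had a protease UMI. No wound cluster could be named from mast cell or basophil markers. The cells of the wounds with the proteases lay in 2 clusters named from lymphoid and endothelial markers, mostly in the first, whose leading genes included both Mcpt4 and Il17a.

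A cell was therefore called basophil-like or mast-cell-like if it had UMIs of at least 4 of the markers of either list that are not proteases, and was given to the list of which it showed more markers, with equal cells counted as basophil-like. This minimum was chosen after the values were seen, because at 3 markers the wound classes took in deep cells without any protease UMI. It gave 27 cells in the untreated culture (0.372%, interval 0.245% to 0.541%), 37 in the VD3 culture (0.419%, 0.295% to 0.577%) and 0 in the Ndrg2-KO culture, which allows up to 0.0376%. These 64 cells are called basophil-like here, although 2 of them, both VD3 cells, had more mast cell markers, with 99 UMIs of Mcpt8, 192 of Prss34 and 111 of Cpa3. Another 6 untreated and 8 VD3 cells were equal cells, with 1880 and 1185 protease UMIs. In the wounds 12 cells were mast-cell-like, 2 with control DCs (0.103%, 0.0124% to 0.370%), 9 with Ndrg2-KO DCs (0.158%, 0.0725% to 0.301%) and 1 with the blank hydrogel (0.0294%, 0.000744% to 0.164%), shares whose intervals overlapped. Another 11 wound cells were basophil-like, 8 with Ndrg2-KO DCs, 3 with the blank hydrogel and 0 of 1948 with control DCs, which allows up to 0.154% (again 3 cells). Of the 8, 2 were equal cells, with 98 protease UMIs. Of the 69 culture cells with at least 10 protease UMIs 63 were in a class, as were all 16 such wound cells.

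Across these classes the proteases formed 2 sets that shared Cpa3. In the 64 basophil-like cells of the cultures Prss34 was at 5998 CPM (5848 to 6152), Mcpt8 at 5238 CPM (5097 to 5382) and Cpa3 at 2091 CPM (2002 to 2182). Cma1, Mcpt4 and Tpsab1 had 0 UMIs there, and Tpsb2 had 4 UMIs in 2 cells. In the 12 mast-cell-like wound cells Cma1 was at 38805 CPM (37200 to 40460), Mcpt4 at 37465 CPM (35889 to 39092), Tpsb2 at 22250 CPM (21039 to 23512), Cpa3 at 19376 CPM (18247 to 20556) and Tpsab1 at 1763 CPM (1434 to 2144). Prss34 had 0 UMIs in them, and Mcpt8 had 8, of which 7 were in a single cell that held no chymase or tryptase UMI. Because the minimum of markers was set in view of protease content, these levels are a description. With at least 3 markers the 14 mast-cell-like wound cells had 23121 CPM of Cma1, 22323 CPM of Mcpt4, 13257 CPM of Tpsb2 and 11545 CPM of Cpa3, and the 7 genes fell from 119799 to 71391 CPM. At 4 markers a basophil-like cell of the blank hydrogel wound with 53180 UMIs still had no protease UMI. Levels are per UMI, and a UMI count does not scale with gene length.

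Cpa3 was thus in both classes, at a log2 ratio of 3.21 (3.11 to 3.32) in favour of the mast-cell-like wound cells. Per 10000 UMIs of a cell, Cpa3 ranged from 0 to 113 with a median of 21.3 over the basophil-like culture cells, and from 3.34 to 394 with a median of 198 over the mast-cell-like wound cells. The ranges of single cells overlapped. The lowest mast-cell-like value was that of the cell without a chymase or tryptase UMI, and over the other 11 Cpa3 ran from 105 to 394. The 7 genes together were 13331 CPM of the basophil-like culture cells and 119799 CPM of the mast-cell-like wound cells. Cell type, tissue and the version of the counting software all differed in this comparison of culture with wound cells, and cannot be told apart in it. Within the wounds, the 11 basophil-like cells had Cpa3 at 163 CPM (95.2 to 262). The 7 genes together were at 2297 CPM (2015 to 2608) in them.

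No single cell held at least 10 UMIs of both sets. Of the 69 culture cells with at least 10 protease UMIs, 67 held more UMIs of Mcpt8 and Prss34 together than of the chymases and tryptases, and the other 2 were VD3 cells with 83 and 13 UMIs of Cpa3 and none of Mcpt8 or Prss34. Cpa3 outnumbered Mcpt8 and Prss34 together in 11 of the 69 cells, 2 untreated and 9 VD3. In the cultures 60 cells had at least 5 Mcpt8 UMIs, of which 58 also had Prss34, 57 Cpa3 and 0 Cma1 or Mcpt4. In the wounds 11 cells had at least 5 Mcpt4 UMIs, and all 11 had Cma1, Tpsb2 and Cpa3, while 8 had Tpsab1.

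**Figure D3:**
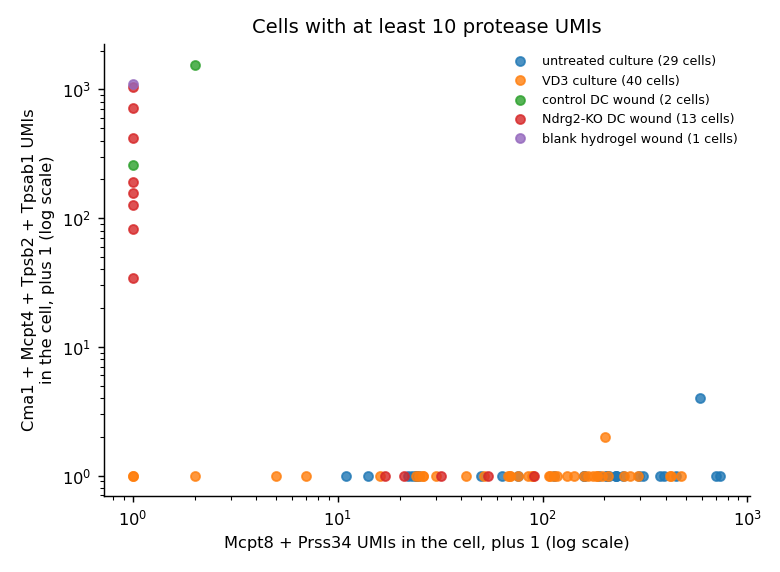
Each point is a cell with at least 10 UMIs of the 7 genes, plotted by its UMIs of Mcpt8 and Prss34 plus 1 (horizontal) against its UMIs of Cma1, Mcpt4, Tpsb2 and Tpsab1 plus 1 (vertical), both on log axes, coloured by library. The 69 culture cells and 5 cells of the Ndrg2-KO DC wound lie along the bottom and 11 wound cells along the left edge, with no cell in between.

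The 11 wound cells with chymases and tryptases can be given nearly one by one. In the control DC wound the first had 728 UMIs of Mcpt4, 413 of Cma1, 391 of Tpsb2, 257 of Cpa3 and 28 of Tpsab1 among its 17326 UMIs. The second had 99, 87, 71, 68 and 3 of the same genes among 1984 UMIs. In both, Mcpt4 stood above Cma1.

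In the Ndrg2-KO DC wound the highest of 8 such cells had 457 UMIs of Cma1, 361 of Mcpt4, 203 of Tpsb2, 173 of Cpa3 and 26 of Tpsab1 among 7489 UMIs. Over the 8 cells Cma1 ran from 11 to 457 UMIs, Mcpt4 from 10 to 361, Tpsb2 from 12 to 203 and Cpa3 from 12 to 173. Cma1 stood above Mcpt4 in all 8. The only such cell of the blank hydrogel wound had 446 UMIs of Mcpt4, 407 of Cma1, 221 of Tpsb2, 208 of Cpa3 and 24 of Tpsab1 among 11061 UMIs, and it was within the top 6% of that library's doublet scores.

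These transcripts filled a large part of each of those cells. The 7 genes made up 5.92% to 19.5% of the UMIs of the 11 cells, with a median of 11.8%. In the 69 culture cells they made up 0.0250% to 5.84%, with a median of 1.40%.

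The Ndrg2-KO DC wound also held 5 cells with at least 10 protease UMIs that were of the other set. They had 60, 34, 20, 16 and 20 UMIs of Mcpt8, 30, 19, 11, 0 and 0 of Prss34, 2, 0, 3, 10 and 0 of Cpa3, and 0 of the chymases and tryptases. The proteases were 0.399% to 1.88% of their UMIs. No cell of the control DC or the blank hydrogel wound was of this kind, where Mcpt8 had 2 and 8 UMIs in all. Whether such cells came with the transplanted DCs or from the host was not tested.

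The make-up of the sets differed among libraries. Of the protease UMIs of the basophil-like cells, Mcpt8, Prss34 and Cpa3 took 42.8%, 44.0% and 13.1% in the untreated culture, 35.1%, 46.2% and 18.7% in the VD3 culture and 67.8%, 25.1% and 7.11% in the wounds. Of those of the mast-cell-like cells, Cpa3 took 15.1%, 16.9% and 15.9% in the control DC, Ndrg2-KO DC and blank hydrogel wounds. Mcpt4 took 38.5%, 25.5% and 34.2% and Cma1 23.3%, 38.7% and 31.2%. Tpsb2 took 21.5%, 17.3% and 16.9% and Tpsab1 1.44%, 1.35% and 1.84%. The order of Mcpt4 and Cma1 turned between the control DC and the Ndrg2-KO DC wound.

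**Figure D4:**
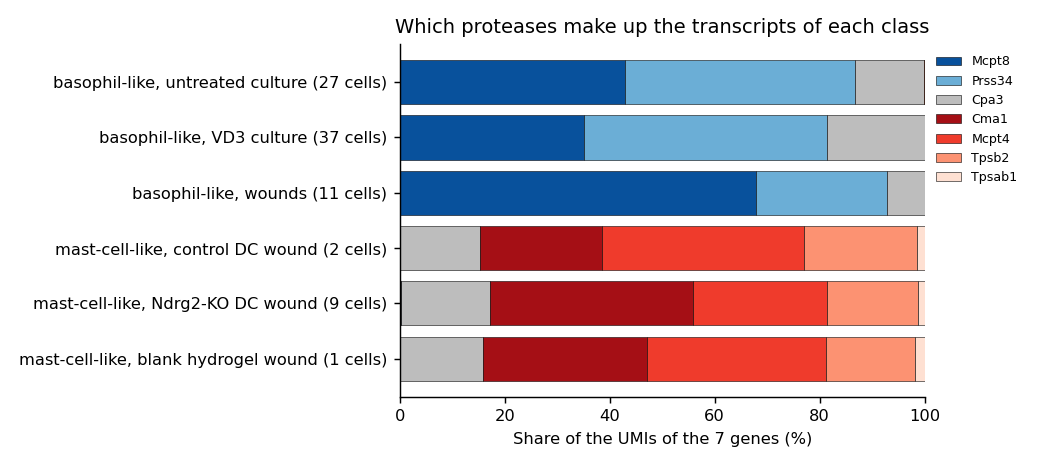
Share of the UMIs of the 7 genes (percent, horizontal) contributed by each gene, for the basophil-like cells of the untreated culture (27 cells), the VD3 culture (37) and the wounds (11), and for the mast-cell-like cells of the 3 wounds (2, 9 and 1). Mcpt8, Prss34 and Cpa3 fill the upper 3 bars, and Cpa3 is the gene present in all 6, at 7.11% to 18.7%.

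Within the basophil-like cells of the cultures, the log2 ratio of VD3 against untreated was -0.01 (-0.09 to 0.07) for Mcpt8, 0.34 (0.27 to 0.42) for Prss34 and 0.78 (0.65 to 0.91) for Cpa3. The direction depended on how the cells were classed. In the basophil-like cluster Mcpt8 was at 4763 CPM untreated and 2871 CPM with VD3, Prss34 at 4884 and 3774 CPM, and Cpa3 at 1494 and 1527 CPM. With 30 components these were 8189 and 5244, 8222 and 6897, and 2561 and 2790 CPM. Of the 27 untreated cells, 3 lay in another cluster, had doublet scores in the top 6% and held 56435, 63311 and 91725 UMIs, with 62, 52 and 27 protease UMIs. Without the highest 6% of doublet scores, Cpa3 in the basophil-like cluster was at 1647 CPM untreated and 1627 CPM with VD3. No direction was therefore read for the sum, Mcpt8, Prss34 or Cpa3. The medians over cells were lower with VD3 for Mcpt8 and Prss34: per 10000 UMIs, Mcpt8 had a median of 82.9 in the 27 untreated and 41.2 in the 37 VD3 cells, Prss34 77.3 and 56.8, and Cpa3 20.7 and 24.7. The median depth of these cells was 14734 UMIs untreated and 7529 UMIs with VD3. Over cells, Mcpt8 ran from 0.981 to 274 untreated and from 0 to 252 with VD3, ranges that overlapped for nearly all cells.

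In the whole wound libraries the 7 genes together came to 74.3 CPM (71.2 to 77.5) with control DCs, 74.1 CPM (71.7 to 76.5) with Ndrg2-KO DCs and 38.5 CPM (36.4 to 40.6) with the blank hydrogel. Of these totals 82.4%, 33.5% and 97.2% were in the highest cell. Without it the levels were 13.0, 49.3 and 1.06 CPM. The blank hydrogel wound was lowest with and without it, whereas the order of the other two rested on 1 cell in each, and the counting intervals understate the error of every wound value.

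By gene, Mcpt4 was at 28.4, 17.7 and 12.9 CPM in the control DC, Ndrg2-KO DC and blank hydrogel wounds, Cma1 at 17.5, 26.7 and 12.2 CPM and Tpsb2 at 16.0, 12.0 and 6.33 CPM. Cpa3 was at 11.2, 11.9 and 6.10 CPM and Tpsab1 at 1.04, 0.955 and 0.716 CPM. Tpsab1 was the lowest of the mast cell set in all 3. Mcpt8 had 2, 170 and 8 UMIs and Prss34 0, 60 and 0.

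Between the Ndrg2-KO DC and the control DC wound, the log2 ratio was 0.61 (0.46 to 0.76) for Cma1, -0.68 (-0.82 to -0.54) for Mcpt4, -0.41 (-0.59 to -0.24) for Tpsb2, 0.09 (-0.11 to 0.29) for Cpa3 and -0.13 (-0.81 to 0.57) for Tpsab1. Without the highest cell of each library, Mcpt4 and Tpsb2 turned to 1.42 and 1.47, Cma1 went to 2.27 and Cpa3 to 1.72, so that all 4 were then past 2-fold higher. Mcpt8 was higher by 5.68 (3.80 to 8.74), from 170 against 2 UMIs, and Prss34 was at least 12.1-fold higher. With all kept cells, these 2 of the 7 genes were past 2-fold, while 10.6% of all genes tested were (1418 of 13358). All 60 Prss34 UMIs were in 3 of the 5 cells above. Outside cells with at least 10 protease UMIs, Mcpt8 had 20 UMIs in 5 cells of the Ndrg2-KO DC wound and 1 UMI in the control DC wound.

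Between the blank hydrogel and the control DC wound, Mcpt4 and Tpsb2 were past 2-fold, at -1.14 (-1.30 to -0.97) and -1.34 (-1.58 to -1.11), though Mcpt4 was at -0.96 under 5% mitochondrial UMIs. Cpa3 was at -0.88 (-1.13 to -0.63), Cma1 at -0.53 (-0.71 to -0.34) and Tpsab1 at -0.54 (-1.37 to 0.26). Cpa3 and Cma1 were past 2-fold too in some alternatives, at -2.16 and -1.64 as a mean over cells, -4.16 and -2.81 without the highest cell of each library, and -6.61 and -5.09 without the highest 6% of doublet scores. Mcpt8, with 8 against 2 UMIs, was at 1.77 (-0.56 to 5.04). Among all genes tested 7.6% were past 2-fold (998 of 13137). For the chymases, the tryptases and Cpa3 these ratios compare mainly 1 cell with 2, whereas the Mcpt8 UMIs lay in 4 cells of the blank hydrogel and 2 of the control DC wound.

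The share of wound cells with any protease UMI was 2.41%, 1.28% and 0.793% in the 3 wounds, and 0.520% (0.250% to 0.954%), 0.412% (0.261% to 0.617%) and 0.210% (0.0844% to 0.432%) with each cell drawn down to 1000 UMIs. The intervals of the drawn shares overlapped. In cells named from fibroblast markers, which should lack these genes, 2.69%, 1.20% and 0.587% had a UMI, at median depths of 30340, 27120 and 28504 UMIs. A share of cells with a protease UMI was therefore not read as a share of mast cells. Among the barcodes that the filters removed from the Ndrg2-KO DC wound, 305 protease UMIs were counted, and 2 barcodes had at least 10.

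The other genes of granules, mediators and receptors were compared between the 64 basophil-like culture cells and the 12 mast-cell-like wound cells, counting a gene as higher or lower if the interval of its ratio lay past 2-fold. Of all 2759 genes with at least 50 UMIs in both classes together, 7.32% were higher in the basophil-like cells (202) and 5.8% lower (160), with a median log2 ratio of 0.81. Genes with fewer UMIs are counted in the lists too. Hdc, Slc18a2, Fcer1a, Ms4a2, Gata2, Kit, Tph1, Maob, Mrgprb1 and Mrgprb2 are among the markers that chose the cells, so their presence there is not a finding and their levels in the classes are given as a description.

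All 5 amine genes had lower values in the basophil-like culture cells, but 4 of them, Hdc, Slc18a2, Tph1 and Maob, are markers that chose the cells, so their count is not read as a result. Hdc was at 359 against 6065 CPM, Slc18a2, the transporter that loads amines into granules, at 70.8 against 652 CPM, and Maob, which degrades amines, at 6.98 against 423 CPM. In the basophil-like wound cells Hdc was at 2672 CPM and Slc18a2 at 413 CPM. Tph1, the first enzyme of serotonin synthesis, had 0 against 89 UMIs, of which 73 were in 1 cell of the control DC wound. Ddc, which completes serotonin synthesis, had 0 against 6 UMIs.

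Of 9 genes of the IgE receptor and its signalling, 0 were higher and 1 was lower, with Fcer1a and Ms4a2 among the markers of both lists. Ms4a2 was at 503 CPM in the basophil-like and 317 CPM in the mast-cell-like cells, and the common gamma chain Fcer1g at 1705 and 1939 CPM. Fcer1a was the 1 lower, at 620 against 3438 CPM. Of the growth factor receptors 0 of 7 were higher and 3 lower. Kit, the receptor for the mast cell growth factor, had 1 UMI in the 64 basophil-like cells and 61 in the 12 mast-cell-like cells. Il1rl1, the receptor for IL-33, was at 137 against 2645 CPM, and Csf2rb2, a beta chain of the IL-3 receptor, at 263 against 987 CPM. That was 1 of 3999 Kit UMIs in the cultures, so that the Kit level of the VD3 culture came from other cells.

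Of 9 transcription factors 0 were higher and 1 was lower, Tal1, at 26.9 against 370 CPM. Gata2 was at 429 and 529 CPM. Cebpa, a factor of granulocyte lineages, was at 98.7 CPM in the basophil-like cells and had 1 UMI in the mast-cell-like cells, and Gata1 was at 18.9 CPM and 0 UMIs, neither past the threshold. Of 8 granule genes 0 were higher and 1 lower, Rab27b, which docks secretory granules, at 18.9 against 458 CPM. Srgn, the serglycin core protein that holds the proteases, was at 3191 and 5465 CPM, and Ctsc, which activates them, at 155 and 229 CPM.

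Of 12 cytokine and lipid mediator genes 1 was higher and 7 were lower. Alox5ap, needed for leukotriene synthesis, was at 1104 against 141 CPM. Il4 was at 35.9 against 3949 CPM, Il13 at 7.97 against 2398 CPM and Il6 at 97.7 against 2045 CPM. In the 11 basophil-like cells of the wounds Il4 was at 1701 CPM, Il13 at 327 CPM and Il6 at 1230 CPM, all above the basophil-like culture cells. Csf1 and Ccl4 were at 28.9 and 27.9 CPM in the basophil-like culture cells, 855 and 8622 CPM in those of the wounds and 317 and 1992 CPM in the mast-cell-like cells. Of the 113 Ccl4 UMIs of the mast-cell-like cells, 0 were in the control DC, 112 in the Ndrg2-KO DC and 1 in the blank hydrogel wound. These genes thus differed between culture and wound within the basophil-like cells too, and cell type and tissue cannot be told apart in the counts above. The mast-cell-like values of Il4 and Il13 rest on few cells, with 178 of 224 and 111 of 136 UMIs in 1 cell of the control DC wound. For Il6, 77 of 116 UMIs were in the only such cell of the blank hydrogel wound, the one within the top 6% of doublet scores. Of the Il4 UMIs of the basophil-like wound cells, 121 of 177 were in 1 cell of the Ndrg2-KO DC wound. The 4 ligands Kitl, Il3, Il33 and Tslp had 0 UMIs in both classes.

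The other genes of the chymase and tryptase loci were mostly silent in both classes, with 12 of 18 at 0 UMIs. Ctsg was the 1 higher gene, at 1436 CPM in the basophil-like cells and 0 UMIs in the mast-cell-like cells. The 4 lower were Gzmb (1 against 33 UMIs, and 145 in the basophil-like wound cells), Gzmc (0 against 21, and 13 there), Tpsg1 (6 against 11) and Mcpt2 (0 against 2). Prss28 had 12 UMIs in the basophil-like cells and 0 in the others. Among all genes with at least 100 UMIs in either class, the largest ratios after Prss34 towards the basophil-like cells were of Prg2, the eosinophil and basophil granule major basic protein (4549 CPM against 0 UMIs), and of the chemokines Ccl6 and Ccl5 and of Slpi, a protease inhibitor (5834 against 88.2 CPM, 2840 CPM against 0 UMIs, and 2381 CPM against 1 UMI). Towards the mast-cell-like cells they were of Cma1, Mcpt4, Tpsb2, Mrgprb1, a receptor of the mast cell Mrgpr family (0 against 165 UMIs), and Ccl7 (16.9 against 13910 CPM).

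**Figure D5:**
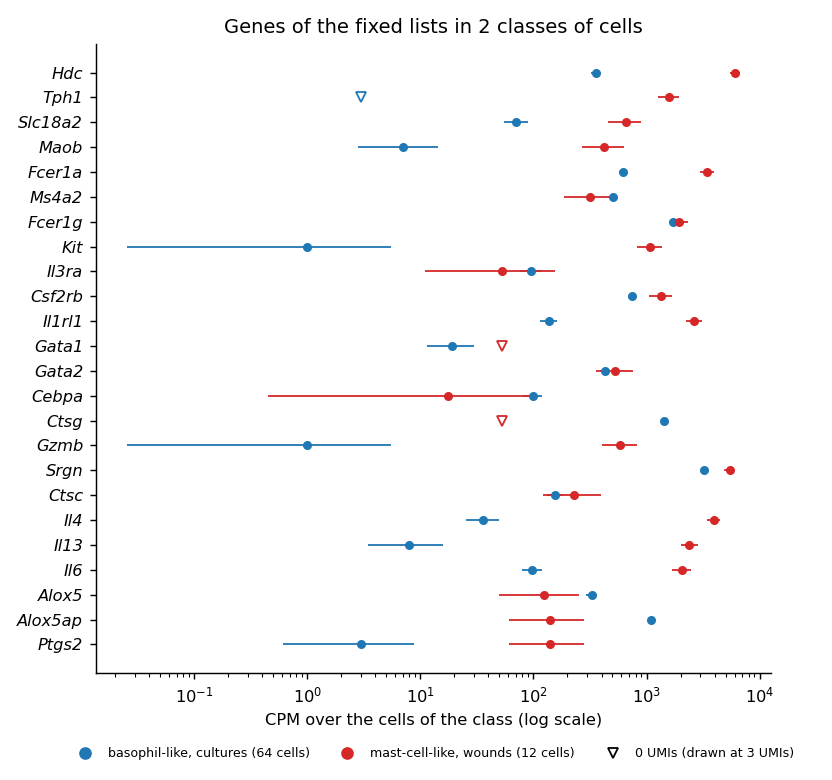
Level of genes of the lists in CPM on a log axis, in the basophil-like cells of the cultures (64 cells, blue) and the mast-cell-like cells of the wounds (12 cells, red); bars are 95% Poisson intervals and open triangles mark 0 UMIs, drawn at 3 UMIs. Hdc, Tph1, Kit, Il4 and Il13 stand apart, while Ms4a2, Fcer1g and Gata2 lie close together.

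Over 67 groups of cells (each cluster of each library with at least 20 cells), the genes whose log2 levels followed Mcpt8 most closely were Grm6 (r = 0.943), Prss34 (0.937), Ms4a2 (0.921), Ms4a1 (0.917) and Iglc2 (0.911). Those of Cpa3 were Fcer1a (0.978), Ms4a2 (0.923), Iglc3 (0.914), Slc18a2 (0.908) and Pou2af1 (0.892), and those of Mcpt4 were Tpsb2 (0.966), Mrgprb1 (0.962), Tpsab1 (0.962), Il17a (0.887) and Cma1 (0.886). The groups share libraries, and the basophil-like cluster and the lymphoid cluster of the wounds mix cell types, so that B cell genes (Ms4a1, Iglc2, Iglc3, Pou2af1) and Il17a of T cells stand beside the proteases. By rank correlation 2, 0 and 0 of the 5 genes were the same for Mcpt8, Cpa3 and Mcpt4.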

How the data were processed

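The 6 libraries were deposited as gene by cell matrices of UMI counts, which per the file headers the authors made with Cell Ranger 3.1.0 (cultures) and 6.0.0 (wounds). The study's methods name mm10 and the submitters' processing notes name mm9 and Seurat 3.1.1. Gene positions were taken from the GENCODE annotation of GRCm38 and promoters from RefSeq. The cell filters are those given with the samples above, and counts were summed per library or class and divided by its UMIs (CPM). With 1 library a condition no test was made. Intervals (95%) are exact Poisson (levels), Clopper-Pearson (shares) or conditional binomial (ratios), computed with SciPy 1.17.1 in Python 3.11.15. They cover counting error only. A count of 0 was set to a floor of 3 UMIs in bounds on a fold.

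Cultures and wounds were clustered separately with Seurat 5.3.0 in R 4.3.3 (2000 variable genes without the 7 members, 15 components, 15 neighbours, resolution 0.5) and clusters were named from at least 3 markers. Likeness between genes was Pearson's r of log2(CPM + 1). The automatic Scrublet call marked at most 0.873% of cells in a library and 0 in others, so that no doublets were removed, and the highest 6% of scores were left out as an alternative. Genes named are the members, the fixed lists, the 5 genes most like Mcpt8, Cpa3 and Mcpt4, and the 5 largest ratios each way among genes with at least 100 UMIs. The 8 basophil and 10 mast cell markers share 4 genes. The members and lists were chosen with earlier results of these data known. Alternatives changed the cell filters, the scaling, doublets, the clustering, the marker minimum and the cells included. The ratio code was tested on simulated data.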

Additional observations from a re-analysis of the deposited data

How the results depend on the processing

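No paired analysis was possible because each condition was 1 library and no result came from a test between samples. Of the values that answer a comparison, 67 stayed within their limit and 72 moved, and of the values of single genes 50 stayed, 33 moved and 3 reversed. The limit was the counting interval for levels, shares and ratios and its upper end for the knockout bound. For counts of genes and of shared genes it was a fixed factor. The causes were not tested, except where an alternative leaves out cells. For the 7 genes together, the untreated culture (55.6 CPM) went to 147 CPM and the VD3 culture (54.3 CPM) to 217 CPM with cells under 5% mitochondrial UMIs, to 60.9 and 59.7 CPM without the highest 6% of doublet scores, to 75.3 and 78.6 CPM without mitochondrial and ribosomal protein genes, to 84.9 and 78.6 CPM as a mean over cells, and to 49.7 and 49.3 CPM without the highest cell (this last alternative was chosen after seeing the data). Median-ratio scaling gave 53.7 CPM untreated, and all deposited barcodes gave 51.0 CPM with VD3. The log2 ratio of VD3 against untreated for the sum was 0.56 under 5% mitochondrial UMIs, -0.10 with all barcodes, 0.062 without mitochondrial and ribosomal protein genes, 0.040 with median-ratio scaling and -0.11 as a mean over cells, and that of Mcpt8 reversed to 0.19 under 5%. The log2 bound of the knockout against untreated (-11.38) became -10.12 under 5%, and a mean over cells gives no bound.

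For the Ndrg2-KO DC against the control DC wound the sum was at 0.18 under 5% mitochondrial UMIs, 0.14 with median-ratio scaling, 0.36 as a mean over cells and 1.92 without the highest cell, where Mcpt4 and Tpsb2 reversed to 1.42 and 1.47. For the blank hydrogel against the control DC wound it was at -0.72, -6.49 without the highest doublet scores (which removes the 1 mast-cell-like cell), -1.96 as a mean over cells and -3.62 without the highest cell. Tpsb2 has no value in that comparison under the 2 alternatives that remove this cell, since it then had 0 UMIs. Without drawing down, the shares of cells with a UMI were 1.25%, 1.02%, 2.41%, 1.28% and 0.793% in the 5 libraries with a member.

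The basophil-like cluster (0.854% untreated, 0.963% VD3 and 0.0125% Ndrg2-KO, with 11145 and 8173 CPM in the first 2) became 0.331%, 0.408% and 0% with 30 components, at 18980 and 14934 CPM. By markers it became 0.496%, 0.453% and 0% (at least 3) or 0.372%, 0.419% and 0% (at least 4), and 0.678% of Ndrg2-KO cells had at least 2. Levels were 3214 and 3149 CPM with at least 2 markers, 9593 and 12849 CPM with 3, 12279 and 14832 CPM with 4, 11786 and 8482 CPM with members among the variable genes, and 12543 and 8575 CPM without the highest doublet scores. The mast-cell-like cells of the wounds (111134, 126874 and 118073 CPM) became 0.924%, 1.06% and 1.03% of cells at 5581, 3796 and 2466 CPM with at least 2 markers, 84548 and 56913 CPM in the first 2 with 3, and 0% in the blank hydrogel wound without the highest doublet scores, which leaves no level. Wound clusters at resolution 1, with 30 components or with members kept gave no mast cell name and no value. Of the 5 genes most like Mcpt8, Cpa3 and Mcpt4, 2, 0 and 0 stayed by rank. With no minimum beyond 1 UMI, genes past 2-fold numbered 5658 (VD3), 6607 (Ndrg2-KO DC wound) and 5835 (blank hydrogel) and genes at 0 in the knockout 1504. With a minimum of 200 UMIs, 873, 583 and 10 were counted in the last 2 and the knockout. The wound values rest on 1 to 9 cells.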

Other observations

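The few protease cells of the wounds held a large part of some cytokine and receptor transcripts of the whole wounds. Of 503 Il4 UMIs in the 3 wounds, the 12 mast-cell-like cells held 224 (44.5%) and the 11 basophil-like cells 177 (35.2%), together 79.7%. A cell of the control DC wound with chymases had 178 of them and a Mcpt8 cell of the Ndrg2-KO DC wound 121. Of 412 Il13 UMIs both classes held 170 (41.3%). Il6 was different, with 244 of 37253 UMIs (0.655%). Mrgprb1 and Mrgprb2 were almost wholly in the mast-cell-like cells, with 165 of 169 and 20 of 20 UMIs, and Ms4a2 was in the 2 classes alone, with 26 of 26 UMIs, but all 3 are among the markers that chose the cells. Hdc, also a marker, was mainly elsewhere, with 622 of 33439 UMIs (1.86%), and 2 wound clusters named from neutrophil markers had it among their genes. In the cultures the 64 basophil-like cells held 36 of 47 Il4 UMIs and 8 of 8 Il13 UMIs.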
